A study of Mus musculus with 76 samples.

Results

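Maternal knockout (matKO) embryos of Ezhip were followed from the 2-cell stage to the blastocyst in single-embryo libraries of polyadenylated RNA. The comparison used every matKO 2-cell library and the matKO blastocyst libraries whose identifiers carry the prefix D707T, which is the prefix of all the 2-cell libraries: 12 single 2-cell embryos (6 female, 6 male) and 8 single blastocysts (4 female, 4 male), 20 of the 76 libraries of the series. The wild-type (WT) libraries of the same prefix, 11 2-cell embryos and 4 blastocysts (1 female, 3 male), served only to ask whether the stage change differed between genotypes. The labels describe the design as maternal depletion of Ezhip. They name no other allele, agent, strain or age, do not give the deleted part of the gene, and do not say which embryos share a mother, so every p-value rests on differences among individual embryos that may share a mother. The 2-cell embryos and the blastocysts are different embryos, and fewer cells of a type cannot be told apart from less RNA per cell in these whole-embryo libraries.

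Ezhip is a germ-line inhibitor of Polycomb repressive complex 2 (PRC2), the complex that writes the repressive mark H3K27me3 on histone H3. In the mouse, the 2-cell stage is when transcripts inherited from the oocyte are degraded and the embryo's own genome is first transcribed at scale. By the blastocyst stage an outer epithelium, the trophectoderm, encloses a fluid cavity and an inner cell mass, which itself separates into epiblast and primitive endoderm. Maternal H3K27me3 also silences the maternal allele of a small group of genes, a form of imprinting that does not use DNA methylation.

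The matKO libraries held 1476150 to 10967492 counts (median 4224954.5) at the 2-cell stage and 4061206 to 14190048 (median 8506816.5) at the blastocyst stage. Ezhip, listed in the tables as AU022751, was measured at 0 to 15.6 CPM (median 0.867) in matKO 2-cell embryos, against 34.2 to 299 CPM (median 106) in WT 2-cell embryos, and at 0 to 2.53 CPM (median 0.227) in matKO blastocysts, against 5.07 to 54.3 CPM (median 13.4) in WT blastocysts. CPM here are counts per 1000000 counts of the library after scaling by the trimmed mean of M values (TMM). Y-linked counts matched the labelled sex in every library, with 0 to 6 counts in females and 52 to 1238 in males. Among the 2-cell embryos, the 5 libraries with identifier numbers 37 to 41 (4 female, 4189675 to 10967492 counts) stood apart from the 7 with numbers 42 to 48 (2 female, 1476150 to 4653399 counts) on the second principal component (7.39% of the variance), at -109.2 to -62.6 against 13 to 79.8. Their depths differed too: of numbers 42 to 48, only 42 (4653399 counts) and 44 (4260234 counts) exceeded the lowest of 37 to 41. One 2-cell library, female replicate 4, held macrophage transcripts: Lyz2, a lysozyme of myeloid cells, was at 2311 CPM there and at 0 to 81.9 CPM in the other 11, and the complement gene C1qc was at 111 CPM there and at 0 in the others. The summed level of the 20 macrophage and blood genes was 2731 CPM in that library, against 7.16 to 87.9 CPM in the other 2-cell libraries and 2.70 to 28.6 CPM in the blastocysts. Without that library 3327 genes were called higher and 4950 lower, against 3571 and 4824 with it.

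Most of the transcriptome differed between the stages. Of 12512 genes tested, 3571 were called higher in blastocysts (28.5%) and 4824 lower (38.6%), so that 67.1% were called either way. A gene was called where the Benjamini-Hochberg adjusted p of edgeR's quasi-likelihood test was under 0.05 and the change was at least 2-fold. With scaling by library totals alone the split was 2537 higher and 5957 lower. The median log2 fold change of all tested genes (always blastocyst over 2-cell) was -0.36 with TMM and -1.04 with library totals, and each gene's change is to be read against that median. The falls were the larger changes: the median called fall was 12.5-fold and the median called rise 5.76-fold. The counts of members called for the stage change in each list are to be read against 28.5% higher and 38.6% lower. In 815 of the genes called lower no count was found in any of the 8 blastocysts, whereas 20 of those called higher had no count in any of the 12 2-cell embryos. In terms of library content, the genes called lower made up 50.3% ± 9.23 (SD, n = 12) of the counts at the 2-cell stage and 5.12% ± 0.857 (SD, n = 8) at the blastocyst stage. Those called higher went from 19.1% ± 6.17 to 75.3% ± 2.59. The 20 most abundant genes took 4.34 to 6.46% of the counts in 2-cell embryos and 12.4 to 15.6% in blastocysts.

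**Figure D1:**
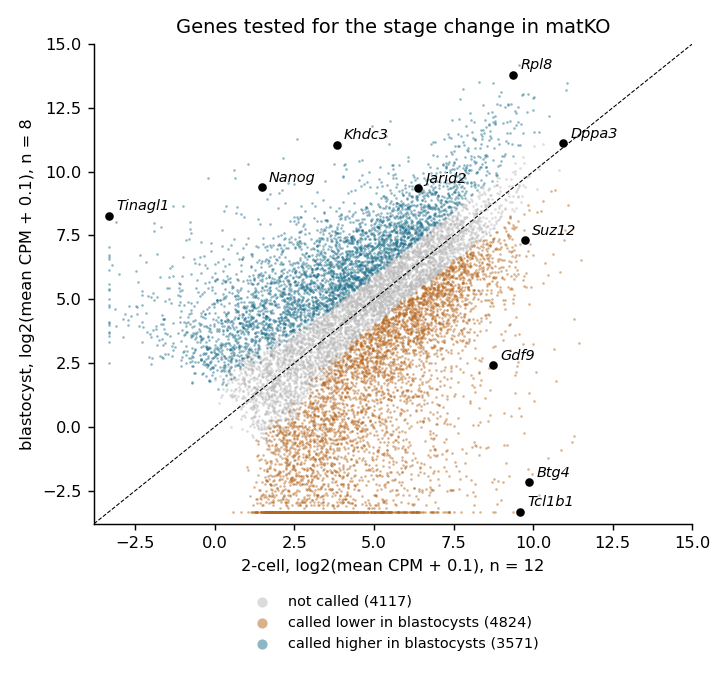
Each point is 1 of the 12512 genes tested, with its mean level in the 12 matKO 2-cell embryos on the x axis and in the 8 matKO blastocysts on the y axis, both as log2(mean CPM + 0.1). The 4824 genes called lower lie below the dashed line of equality, many of them on the floor where no blastocyst had a count, and Dppa3 lies on the line.

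The steepest rises were in genes with few or no counts at the 2-cell stage. Tinagl1, which encodes a secreted matrix protein, had no count in any 2-cell embryo and was measured at 197 to 495 CPM (median 280) in the blastocysts. This was at least 6073-fold higher, taking 3 counts over the 12 libraries as the limit of detection (adjusted p = 9.38e-12). The next 4 genes were also at 0 in all 2-cell embryos. The zymogen granule gene Sycn rose at least 2618-fold, the epithelial small GTPase gene Rab17 at least 2068-fold, the serpin Serpinb9b at least 1988-fold and the phosphoinositide 3-kinase regulatory subunit Pik3r6 at least 1846-fold. Apoa1, the main protein of high-density lipoprotein, went from 0 to 239 CPM by median, with 0.186 CPM as the highest 2-cell value and 129 CPM as the lowest blastocyst value. The 12 2-cell libraries held 1 Apoa1 count, and the ratio of pooled CPM was 15060 (95% exact counting interval 2703 to 595000; adjusted p = 8.59e-16). Such intervals and limits cover counting error only. Ckmt1, a mitochondrial creatine kinase, was measured at 0 to 1.29 CPM (median 0) in the 2-cell embryos and at 140 to 272 CPM (median 212) in the blastocysts, and the chloride channel protein gene Clic3 at 0 to 0.0837 CPM (median 0) in the 2-cell embryos and at 39.9 to 166 CPM (median 74.4) in the blastocysts. No value of these 8 genes overlapped between the stages; over all genes tested, 15.8% were higher without overlap and 19.5% lower.

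The steepest falls were in oocyte and 2-cell transcripts. Tcl1b1, Tcl1b2 and Tcl1b3 belong to a cluster of near-identical genes related to the AKT coactivator Tcl1, so their separate values are uncertain. Tcl1b1 was measured at 130 to 1615 CPM (median 777) in 2-cell embryos and had no count in any blastocyst, at least 12780-fold lower. Gdap1, a protein of the outer mitochondrial membrane, was at 186 to 785 CPM in the 2-cell embryos and at 0 in every blastocyst, at least 7067-fold lower (adjusted p = 2.57e-12). The homeobox gene Sebox was also at 0 in every blastocyst, at least 3521-fold lower. Btg4, an adaptor that brings maternal messages to the CCR4-NOT deadenylase, was measured at 228 to 1998 CPM (median 996) in the 2-cell embryos and at 0 to 0.65 CPM (median 0) in the blastocysts. Its log2 change was -13.08 ± 0.85 (SE, as for each log2 change that follows; adjusted p = 9.14e-12), and 2 of the 8 blastocysts held any Btg4 count.

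Of the 45 maternal oocyte transcripts listed, 42 were tested, and 40 fell, 1 rose and 1 was not called. Their median log2 change was -8.30, or -7.58 with the genes that had no blastocyst count set at their limit of detection, against -0.36 for all genes. Gdf9 and Bmp15, growth factors that oocytes secrete to their follicle cells, were among them. Gdf9 was measured at 278 to 663 CPM (median 423) in the 2-cell embryos and at 0 to 10 CPM (median 6.21) in the blastocysts (log2 change -6.37 ± 0.59, adjusted p = 2.18e-09). The 4 matKO oocyte libraries of the series held 2451 to 10230 CPM of Gdf9, so the 2-cell level was already below theirs. Zp3, a glycoprotein of the zona pellucida, was measured at 168 to 509 CPM (median 237) in the 2-cell embryos and at 1.17 to 23.4 CPM (median 6.61) in the blastocysts, and the 2 ranges did not overlap. Kit, the receptor for stem cell factor, was measured at 55.3 to 180 CPM (median 107) in the 2-cell embryos and at 0 to 0.65 CPM (median 0) in the blastocysts, and 3 blastocysts held a count. Omt2a, Omt2b and Oog3 were among the 8 most abundant genes of the 2-cell embryos per kilobase and also have close paralogs, so counts may be split between copies. Omt2b was at 1604 ± 736 CPM per kilobase (SD, n = 12) in 2-cell embryos and at 0.442 ± 0.818 (n = 8) in blastocysts.

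Among genes of the subcortical maternal complex, a protein assembly of the egg cortex that early cleavage needs, all but 1 of those listed fell. Nlrp5 was measured at 77.1 to 291 CPM (median 211) in the 2-cell embryos and at 0 to 5.91 CPM (median 0) in the blastocysts (log2 change -7.67 ± 0.78). Tle6, a further member, was at 214 ± 53.4 CPM in the 2-cell embryos and 13.7 ± 8.77 in the blastocysts (SD; log2 change -4.07 ± 0.34). Padi6 fell by 3.48 ± 0.35, Zbed3 by 9.89 ± 0.84 and Ooep by 1.05 ± 0.37 on the log2 scale, and Nlrp2, at 0 in every blastocyst, was at least 361-fold lower. Tle6, Padi6, Zbed3 and Nlrp2 were chosen after their values were seen. Khdc3, chosen for mention after its values were seen, is a member of the same complex and was the 1 listed maternal transcript that rose. It was measured at 1.22 to 39.2 CPM (median 12) in the 2-cell embryos and at 1367 to 3157 CPM (median 2086) in the blastocysts, so that every blastocyst lay above every 2-cell embryo (log2 change 7.38 ± 0.50, adjusted p = 1.73e-11). Dppa3, a maternal factor that protects the maternal genome from demethylation, was measured at 660 to 3213 CPM (median 2073) in the 2-cell embryos and at 1391 to 3160 CPM (median 2315) in the blastocysts. Its log2 change of 0.18 ± 0.25 did not pass the test (adjusted p = 0.53). Per kilobase, Dppa3 stood at 2213 ± 739 CPM (SD, n = 12) in 2-cell embryos and 2482 ± 654 (n = 8) in blastocysts.

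Of the 36 listed transcripts of the 2-cell stage, 27 were tested, and 25 fell, 1 rose and 1 was not called; the median log2 change was -8.20 (-7.29 at the limit of detection). These genes are switched on briefly with the first large wave of embryonic transcription. Zfp352, a zinc finger gene of that wave, had no count in any of the 4 matKO oocytes and was measured at 73.2 to 718 CPM (median 282) in the 2-cell embryos and at 0 to 0.425 CPM (median 0) in the blastocysts. One blastocyst, female replicate 6, held the counts (2 in all), and the 2-cell level was 4944-fold higher (95% exact counting interval 1368 to 40830; adjusted p = 1.77e-11). Obox3, a homeobox gene, was measured at 0 to 0.807 CPM in the oocytes and 181 to 574 CPM (median 318) in the 2-cell embryos, and at 0 in every blastocyst, at least 5300-fold lower. Obox3 and the neighbouring Obox3-ps5 may share reads. Zscan4d, of a family of near-identical genes, was at 8.06 to 154 CPM in 2-cell embryos and at 0 in all blastocysts, at least 1123-fold lower. Ubtfl1, related to the RNA polymerase I factor UBF, kept a low level in the blastocysts, 1.62 to 7.95 CPM (median 5.25) against 145 to 285 CPM (median 208) in 2-cell embryos. Klf17, a zinc finger gene chosen after its values were seen, was at 396 ± 138 CPM in the 2-cell embryos and 2.63 ± 2.3 in the blastocysts (SD). Pramel6, chosen after its values were seen, was the listed gene that rose, with medians of 205 to 561 CPM and no overlap.

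**Figure D2:**
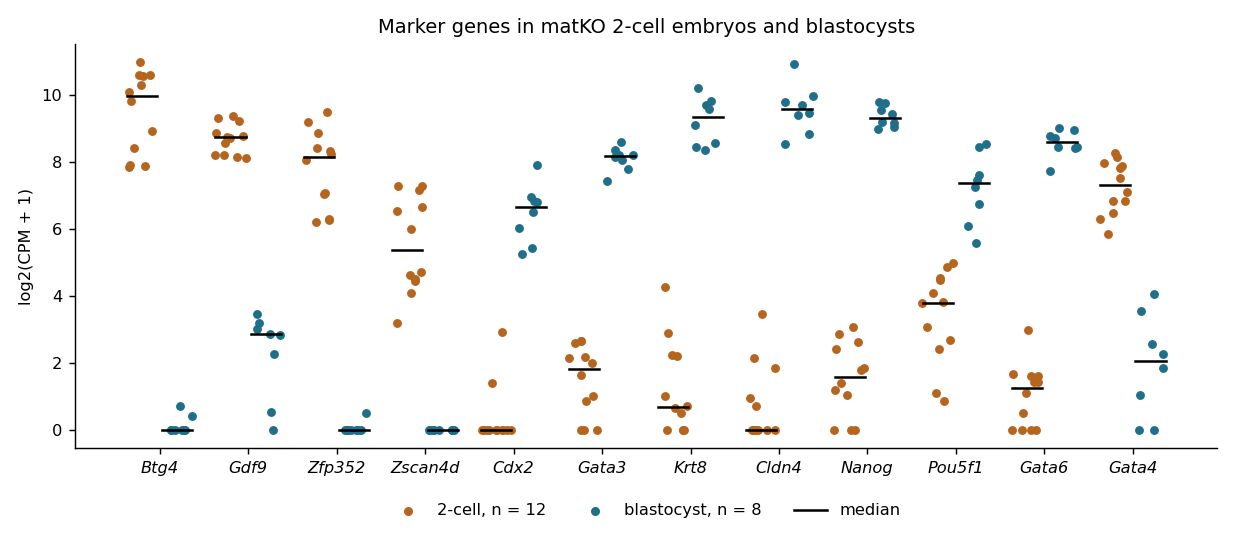
Levels of 12 marker genes in each matKO library, as log2(CPM + 1), with the 12 2-cell embryos in brown and the 8 blastocysts in blue; black bars are medians. Btg4, Gdf9, Zfp352, Zscan4d and Gata4 are high in 2-cell embryos, the other 7 are high in blastocysts, and in each of the 12 genes the stages do not overlap.

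The promoters of 1 gene that fell and 2 that rose are printed to show how different the sequence before such genes can be. They are the 250 bases before the RefSeq start, build GRCm38.p6 (mm10), 5′ to 3′ on the gene's strand. No gene of the reference annotation overlaps these windows. Capitals mark, on either strand, TAATCC (read by OTX and OBOX homeobox factors), GGAATG (read by TEAD factors), AGATAA (read by GATA factors), GCCNNNGGC (AP-2) and CACGTG (E-box), and, on the gene's strand only, TATAAA. A match is only a match of letters.
Zfp352 (chr4:90218570-90218819, plus strand): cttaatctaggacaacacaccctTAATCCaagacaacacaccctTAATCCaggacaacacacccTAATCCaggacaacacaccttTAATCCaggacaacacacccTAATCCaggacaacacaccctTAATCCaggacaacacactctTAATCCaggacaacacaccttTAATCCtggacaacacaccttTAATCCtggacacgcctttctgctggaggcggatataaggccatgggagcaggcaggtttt
Tinagl1 (chr4:130175123-130175372, minus strand): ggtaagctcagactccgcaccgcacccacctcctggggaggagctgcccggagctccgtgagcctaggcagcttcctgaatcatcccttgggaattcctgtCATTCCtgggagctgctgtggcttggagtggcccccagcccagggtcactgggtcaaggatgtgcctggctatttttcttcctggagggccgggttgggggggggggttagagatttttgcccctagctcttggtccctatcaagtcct
Cldn4 (chr5:134946935-134947184, minus strand): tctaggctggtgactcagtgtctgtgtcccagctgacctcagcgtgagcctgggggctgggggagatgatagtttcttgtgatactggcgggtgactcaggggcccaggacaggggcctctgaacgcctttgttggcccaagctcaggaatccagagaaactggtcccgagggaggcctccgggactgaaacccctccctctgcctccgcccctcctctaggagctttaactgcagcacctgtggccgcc
The Zfp352 window held 9 copies of TAATCC in a row of near-repeats and 2 CpG dinucleotides. Of the 27025 RefSeq promoters in the table, 6.38% held this word on either strand and 88 (0.326%) held 2 or more copies; Zfp352 was the 1 promoter with 9 or more. The Tinagl1 window held 1 match to the TEAD word (as CATTCC), a word found in 12.6% of all promoters, and 5 CpG. The Cldn4 window held none of the 6 words and 7 CpG. Of the genes tested, 9076 (72.5%) matched a promoter by symbol. This is under 80%, so a comparison of base composition between rising and falling genes is void and no result is given.

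Trophectoderm genes rose. Of 40 listed, 34 were tested, and 27 rose, 1 fell and 6 were not called, with a median log2 change of 3.79. Cdx2, the transcription factor that specifies this lineage, was measured at 0 to 6.63 CPM (median 0) in the 2-cell embryos and at 36.7 to 239 CPM (median 100) in the blastocysts (log2 change 8.17 ± 0.93, adjusted p = 4.91e-08); 10 of the 12 2-cell embryos had no count, and the 2 stages did not overlap. Gata3, which acts beside Cdx2, was measured at 0 to 5.29 CPM (median 2.56) in the 2-cell embryos and at 172 to 381 CPM (median 287) in the blastocysts. Krt8 and Krt18, the paired keratins of simple epithelia, went from 0.62 to 657 and from 6.49 to 404 CPM by median, with no overlap. Eomes, a T-box factor of trophoblast, and Hand1, a factor of later trophoblast, both rose without overlap, Eomes from 4.09 to 70.9 CPM and Hand1 from 0.153 to 27.2 CPM by median (both chosen after their values were seen).

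The same list holds the genes of transport and of the epithelial seal. Cldn4, a claudin of tight junctions, was measured at 0 to 9.95 CPM (median 0) in the 2-cell embryos and at 369 to 1928 CPM (median 762) in the blastocysts (log2 change 9.90 ± 0.86). Lrp2, the endocytic receptor megalin, was measured at 0.814 to 10.8 CPM (median 3.53) in the 2-cell embryos and at 482 to 657 CPM (median 566) in the blastocysts (log2 change 7.32 ± 0.37, adjusted p = 2.54e-13). Fabp3, a fatty acid binding protein, went from 0 to 871 CPM by median, and Ptges, a prostaglandin E synthase, from 24.6 to 791 CPM. In neither gene did the stages overlap. The water channel gene Aqp3, with 3 counts in the 2-cell embryos, rose 294-fold (95% exact counting interval 100.1 to 1427), while Atp1b1, a subunit of the sodium pump that fills the cavity, had medians of 26.3 to 22.4 CPM and did not pass the test (adjusted p = 0.43; both chosen after their values were seen). Gata2 was the trophectoderm gene that fell, and is described with the comparison of genotypes. Of the 24 listed genes of tight and adherens junctions, 13 rose, 2 fell and 9 were not called. Cldn7 rose by 5.47 ± 0.46 and Ctnna1, which links cadherins to actin, by 2.04 ± 0.18 on the log2 scale. The 2 that fell were Ocln, by 2.12 ± 0.49, and the polarity gene Pard3, by 3.41 ± 0.40.

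In the inner cell mass list, 22 of 27 genes were tested, and 11 rose, 3 fell and 8 were not called (median log2 change 1.37). Nanog, a homeobox gene of pluripotent cells, was measured at 0 to 7.33 CPM (median 2.04) in the 2-cell embryos and at 501 to 876 CPM (median 633) in the blastocysts (log2 change 8.03 ± 0.54, adjusted p = 1.33e-11). Pou5f1, which encodes OCT4, was measured at 0.837 to 30.3 CPM (median 12.9) in the 2-cell embryos and at 46.9 to 369 CPM (median 164) in the blastocysts. Sox2, the partner of OCT4, stayed low, 3.41 to 42.7 CPM (median 16.2) in blastocysts, and overlapped with the 2-cell embryos (log2 change 3.25 ± 0.66). Tfcp2l1, a factor of naive pluripotency, went from 4.31 to 708 CPM by median and Zfp42 (REX1) from 27.2 to 106 CPM. The genes that fell were Fgf4, Prdm14 and Spic. Fgf4, the growth factor by which epiblast signals to its neighbours, was measured at 14.2 to 108 CPM (median 49.3) in the 2-cell embryos and at 0 to 5.93 CPM (median 0.455) in the blastocysts, and the stages did not overlap (log2 change -5.46 ± 0.81).

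Of 28 listed primitive endoderm genes, 17 were tested, and 6 rose (35.3%), 4 fell (23.5%) and 7 were not called, with a median log2 change of -0.08. The shares over all genes were 28.5% and 38.6%, so the counts say little about the list itself. The 2 GATA factors of the lineage moved apart. Gata6, the earlier of them, was measured at 0 to 6.95 CPM (median 1.42) in the 2-cell embryos and at 210 to 518 CPM (median 384) in the blastocysts (log2 change 7.91 ± 0.61). Gata4 was measured at 56.9 to 305 CPM (median 159) in the 2-cell embryos and at 0 to 15.6 CPM (median 3.22) in the blastocysts (log2 change -5.07 ± 0.73). Every blastocyst lay below every 2-cell embryo for Gata4 and above for Gata6. Gata4 was already at 43.99 to 66.5 CPM in the 4 matKO oocytes. Sox17, a further factor of the lineage, passed no count filter, at 0 to 2.24 CPM in 2-cell embryos and 0 to 0.844 CPM in blastocysts. Col4a2, a basement membrane collagen, rose by 4.88 ± 0.64, and Srgn, a proteoglycan, fell by 5.68 ± 0.65 on the log2 scale.

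**Figure D3:**
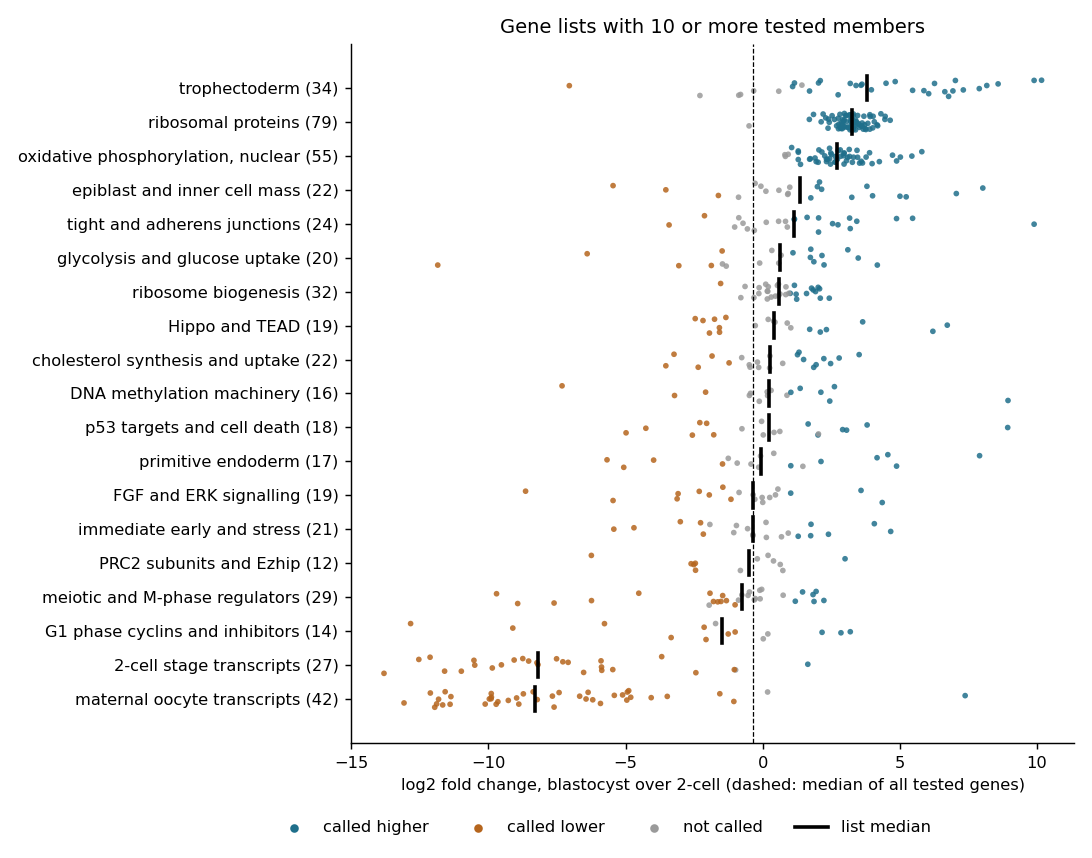
Log2 fold change (blastocyst over 2-cell) of every tested member of the 19 lists with 10 or more tested genes, in blue where called higher, brown where called lower and grey where not called; black bars are list medians and the dashed line is the median of all tested genes. The ribosomal protein and oxidative phosphorylation lists lie almost wholly to the right, the maternal and 2-cell lists almost wholly to the left.

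Genes of protein synthesis and mitochondrial energy rose as nearly whole lists. Of 79 ribosomal protein genes, 78 rose, none fell and 1 was not called (median log2 change 3.24). Many ribosomal protein genes have processed copies, so single values are uncertain. Rpl3 was measured at 45.9 to 426 CPM (median 103) in the 2-cell embryos and at 3415 to 4878 CPM (median 4083) in the blastocysts, and Rps2 at 288 to 782 CPM (median 618) in the 2-cell embryos and at 2996 to 5267 CPM (median 3661) in the blastocysts. Per kilobase, 8 genes of translation led the blastocyst transcriptome. Rplp1 was at 22820 ± 14680 CPM per kilobase (SD, n = 8) against 4298 ± 3201 (n = 12) in 2-cell embryos, and Rpl8 at 16540 ± 4346 against 769.9 ± 529.7. Eef1a1, the elongation factor that delivers aminoacyl-tRNA, was at 5334 ± 1524 against 264 ± 78.6. Of 32 genes of ribosome biogenesis, 12 rose, 1 fell and 19 were not called (median 0.60, or -0.05 with library totals). The nucleolar proteins Npm1 and Fbl rose by 2.43 ± 0.32 and 2.08 ± 0.27, and Wdr43, a processome subunit, fell by 1.53 ± 0.25 on the log2 scale. With the blastocysts of prefix D405T in place of D707T, Fbl changed by 0.58 (adjusted p = 0.0907) and Rplp1 by 0.97, under the 2-fold limit.

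Of 55 nuclear genes of oxidative phosphorylation, 52 rose, none fell and 3 were not called (median 2.72). Ndufv1, a catalytic subunit of complex I, was measured at 7.32 to 38.7 CPM (median 20.7) in the 2-cell embryos and at 224 to 382 CPM (median 324) in the blastocysts (log2 change 3.99 ± 0.27, adjusted p = 1.77e-11). Atp5a1, the alpha subunit of ATP synthase, was measured at 66.6 to 362 CPM (median 146) in the 2-cell embryos and at 1316 to 2817 CPM (median 1981) in the blastocysts, and in both genes every blastocyst lay above every 2-cell embryo. The counts on the mitochondrial genome itself were 0 in every library, so its transcripts are not analysed here.

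Glycolysis did not move as a whole. Of 20 tested genes, 9 rose, 5 fell and 6 were not called (median 0.63, or -0.07 with library totals). The rises included enzymes between hexose and pyruvate. Aldoa, an aldolase, went from 87.3 to 1011 CPM by median and Pgam1, a mutase, from 25.3 to 228 CPM. Enzymes of this stretch did not all rise: Pgk1 was called lower, and Pfkl, Pfkp and Pkm were among those not called. The falls included genes that decide the fate of pyruvate. Pdk1, the kinase that shuts pyruvate dehydrogenase, was at 33.5 to 133 CPM in 2-cell embryos and had no count in any blastocyst, at least 1368-fold lower. Ldhb, the lactate dehydrogenase subunit of the egg, was measured at 404 to 1229 CPM (median 851) in the 2-cell embryos and at 0 to 14.9 CPM (median 11.1) in the blastocysts (log2 change -6.40 ± 0.61), and Ldha fell by 1.48 ± 0.44 on the log2 scale (both chosen after their values were seen). The glucose transporter gene Slc2a3 rose by 2.16 ± 0.32 and Slc2a1 did not pass the test (log2 change 0.59 ± 0.32, adjusted p = 0.105; both likewise). Of 22 genes of cholesterol synthesis and uptake, 9 rose, 5 fell and 8 were not called (median 0.26, or -0.40 with library totals). Hmgcs1, Fdft1 and Sqle, which take acetyl units through squalene to its epoxide, fell, with medians of 206 to 18.2, 363 to 74 and 278 to 18.8 CPM. No blastocyst overlapped with a 2-cell embryo in any of the 3.

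In the Hippo pathway, which reads cell contact and position through the coactivator YAP and the TEAD factors, 6 of 19 tested genes rose (31.6%), 7 fell (36.8%) and 6 were not called (median 0.40, or -0.29 with library totals), close to the 28.5% and 38.6% of all genes. Tead4, the TEAD factor that trophectoderm needs, was measured at 13.1 to 195 CPM (median 52) in the 2-cell embryos and at 302 to 403 CPM (median 329) in the blastocysts. Yap1 was measured at 188 to 818 CPM (median 361) in the 2-cell embryos and at 45.8 to 93.6 CPM (median 80.8) in the blastocysts (log2 change -2.46 ± 0.32), whereas its paralog Wwtr1 (TAZ) did not pass the test (log2 change 0.45 ± 0.26, adjusted p = 0.124). These 3 genes were chosen after their values were seen. The inhibitor Amotl2 rose by 6.73 ± 0.81, while Mob1a, an activator of the LATS kinases, and Wwc2 fell by 1.58 ± 0.20 and 1.94 ± 0.25 on the log2 scale; with the D405T blastocysts Mob1a changed by -0.57, under the 2-fold limit. In the FGF pathway 3 of 19 rose, 8 fell and 8 were not called (median -0.35). The receptor gene Fgfr2 rose by 3.59 ± 0.61 and Fgfr1 did not pass the test (log2 change 0.56 ± 0.45, adjusted p = 0.269; both chosen after their values were seen). Downstream, the phosphatase gene Ptpn11 (SHP2) fell by 1.95 ± 0.22, and the feedback inhibitor Spry4 was measured at 154 to 1106 CPM (median 527) in the 2-cell embryos and at 0 to 4.09 CPM (median 0.558) in the blastocysts (log2 change -8.65 ± 0.81). Downstream genes did not all fall: Spry2 and Dusp4 were called higher. The other genes of this list called lower were Fgf4, Sos1, Dusp6, Spry1, Spred1 and Mapk3.

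Of 14 tested genes of the G1 phase, 3 rose, 8 fell and 3 were not called (median -1.49). Rb1, the retinoblastoma protein that restrains entry into S phase, was measured at 51.5 to 307 CPM (median 170) in 2-cell embryos and had no count in any blastocyst, at least 2712-fold lower. E2f5, a repressive E2F factor, was measured at 95.1 to 1322 CPM (median 603) in the 2-cell embryos and at 0 to 4.51 CPM (median 0.438) in the blastocysts. Ccnd3, a D-type cyclin that drives passage through G1, was measured at 19.6 to 94.8 CPM (median 52.4) in the 2-cell embryos and at 267 to 524 CPM (median 374) in the blastocysts (log2 change 2.85 ± 0.27). The other genes of this list called lower were Cdk2, Rbl1, Cdkn1c, E2f1, E2f2 and E2f4, and the others called higher were Cdk4 and Cdk6. Of 29 meiotic and M-phase regulators 6 rose (20.7%), 12 fell (41.4%) and 11 were not called (median -0.76), near the shares over all genes. Aurka rose by 1.95 ± 0.22 and Fbxo43 (EMI2), which holds the egg at metaphase of meiosis, fell from a median of 93.5 to 0 CPM. Ccne2, an S-phase cyclin, fell by 4.52 ± 0.53 on the log2 scale. Among 18 tested p53 targets and death genes 6 rose and 6 fell (33.3% each; median 0.22, or -0.48 with library totals). Phlda3, an AKT inhibitor, went from 0 to 49.4 CPM by median, Trp53inp1 from 147 to 5.34 and the p53 ligase Mdm2 from 363 to 113 (with the D405T blastocysts, a log2 change of -0.91, under the 2-fold limit). Among 21 immediate early and stress genes 6 rose (28.6%) and 5 fell (23.8%; median -0.35), with Ier2 at medians of 2.4 to 77.2, the heat shock gene Hsph1 at 190 to 649 and Trib3, a target of the integrated stress response, at 96.9 to 7.81 CPM.

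PRC2, the complex that Ezhip inhibits, was measured through 12 subunit genes; 1 rose, 5 fell and 6 were not called (median -0.50). Of the core subunits, the catalytic Ezh2 was measured at 156 to 498 CPM (median 332) in the 2-cell embryos and at 97.4 to 359 CPM (median 170) in the blastocysts and its change of -0.81 ± 0.24 stayed under 2-fold (adjusted p = 0.00394). Under DESeq2 it was -1.01, with library totals -1.50, without 2-cell female replicate 4 -1.03 and with the 2-cell libraries 42 to 48 alone -1.18, each past that limit. The alternative catalytic subunit Ezh1 was measured at 80.7 to 187 CPM (median 109) in the 2-cell embryos and at 0.987 to 55.8 CPM (median 19.7) in the blastocysts (log2 change -2.45 ± 0.44). Suz12, the scaffold of the complex, was measured at 487 to 1162 CPM (median 848) in the 2-cell embryos and at 86.7 to 269 CPM (median 144) in the blastocysts, with no overlap (log2 change -2.46 ± 0.26, adjusted p = 1.77e-08). With the D405T blastocysts in place of D707T, Suz12 changed by -0.74, under the 2-fold limit. Eed, which reads H3K27me3, and the histone binding proteins Rbbp4 and Rbbp7 were not called (log2 changes of -0.20 ± 0.19, 0.64 ± 0.46 and 0.39 ± 0.22). With the D405T blastocysts Rbbp4 and Rbbp7 were called higher (1.27 and 1.12) and Ezh2 changed by 0.09 (adjusted p = 0.743).

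Accessory subunits of PRC2 moved apart. Jarid2, which helps to bring PRC2 to its sites, was measured at 42.3 to 129 CPM (median 76.5) in the 2-cell embryos and at 455 to 831 CPM (median 654) in the blastocysts, and every blastocyst lay above every 2-cell embryo (log2 change 3.00 ± 0.20, adjusted p = 1.21e-11). Aebp2 and Mtf2 were not called (0.73 ± 0.20 and 0.20 ± 0.25); with the D405T blastocysts Mtf2 was called higher (1.70, adjusted p = 1.08e-06). Phf1 was measured at 46.4 to 705 CPM (median 208) in the 2-cell embryos and at 0 to 17.4 CPM (median 2.15) in the blastocysts (log2 change -6.25 ± 0.80), and Phf19 was low at both stages (medians 2.22 to 0.44 CPM). Phf19 was not called with the 2-cell libraries 37 to 41 alone (adjusted p = 0.0994) or with the D405T blastocysts (0.802). Lcor, whose locus also encodes a PRC2 partner, went from 27.3 to 2.73 CPM by median. In the machinery of DNA methylation 6 of 16 genes rose, 3 fell and 7 were not called (median 0.24, or -0.43 with library totals). Dnmt3l, a cofactor of the methyltransferases, and Trim28, the corepressor that guards imprints, rose by 2.12 ± 0.20 and 2.45 ± 0.23. Zfp57, the zinc finger protein that recruits Trim28, fell by 3.21 ± 0.35, and Tet3, the oxidase of the zygote, fell from a median of 90 to 0 CPM (chosen after its values were seen).

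The 8 genes of H3K27me3-dependent imprinting were nearly silent in 2-cell embryos, apart from Jade1, and 6 of them rose, 1 fell and 1 was not called (median 4.15). Gab1, a docking protein of growth factor signalling, was measured at 0 to 18.7 CPM (median 2.26) in the 2-cell embryos and at 70.5 to 352 CPM (median 173) in the blastocysts (log2 change 4.997 ± 0.69). The amino acid transporter gene Slc38a4 was measured at 0 to 8.2 CPM (median 1.47) in the 2-cell embryos and at 23.2 to 51.3 CPM (median 32.1) in the blastocysts, and Smoc1, a matricellular protein gene, at 0 to 5.06 CPM (median 0.109) in the 2-cell embryos and at 6.17 to 34.3 CPM (median 17.8) in the blastocysts. No blastocyst overlapped with a 2-cell embryo in these 3 genes. Sfmbt2, a Polycomb-group gene needed by trophoblast, stayed low, at 0 to 6.05 CPM (median 1.26) in the 2-cell embryos and at 2.32 to 14.2 CPM (median 6.11) in the blastocysts, and its rise of 2.29 ± 0.77 (adjusted p = 0.0102) was not called with library totals (1.61, adjusted p = 0.0666) or with the 2-cell libraries 42 to 48 alone (1.59, adjusted p = 0.0729). The noncoding genes Platr4 and Platr20 moved in opposite directions at low levels, Platr4 from 0 to 12.1 and Platr20 from 3.02 to 0.0843 CPM by median; Platr20 was not called with the D405T blastocysts (adjusted p = 0.401). Jade1, a subunit of a histone acetyltransferase, was measured at 50.3 to 136 CPM (median 95.1) in the 2-cell embryos and at 38 to 111 CPM (median 73.7) in the blastocysts and was not called (adjusted p = 0.0875), though it was called lower with library totals (-1.11). Of 8 tested candidate genes of this kind 4 rose and 1 fell; Epas1, a hypoxia-inducible factor, went from 13.2 to 926 CPM by median, Runx1 from 0 to 23.1 and Bbx from 3.13 to 22.9. None of these values separates the parental alleles.

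Xist, the noncoding RNA that coats and silences an X chromosome and is itself imprinted through maternal H3K27me3, belongs to the same group. It was measured at 0 to 12 CPM (median 0) in the 2-cell embryos and at 16.2 to 926 CPM (median 289) in the blastocysts (log2 change 8.78 ± 0.89, adjusted p = 7.61e-09). All 12 2-cell embryos lay below all 8 blastocysts, males included: the 4 matKO male blastocysts held 374, 126, 119 and 16.2 CPM and the 4 females 204, 528, 479 and 926 CPM. The 3 WT male blastocysts held 0, 2.61 and 0.303 CPM, and the 1 WT female 210.0 CPM. In the genotype-by-stage test the rise differed between genotypes (7.59 ± 1.82 on the log2 scale, adjusted p = 0.0199). The adjusted p was 0.0354 with the D405T blastocysts of both genotypes and 0.129 with the matKO 2-cell libraries 37 to 41 alone. That test used the same sex term at both stages, and the sexes were mixed unequally in WT blastocysts (1 female, 3 males) and equally in matKO. How far the sex mix enters the difference was not tested. Of 396 tested X-linked genes, 66 rose (16.7%) and 208 fell (52.5%), against 28.9% and 38.1% of 12112 autosomal genes. Their median log2 change, -1.43, was below that of each autosome (-0.98 to 0.00).

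The share of RNA from the X per library followed sex at both stages. Taken as log2 of the mean CPM of X-linked over autosomal genes, it was -0.22 ± 0.14 (SD, n = 6) in matKO female and -0.82 ± 0.08 (n = 6) in male 2-cell embryos. In matKO blastocysts it was -0.36 ± 0.14 (n = 4) in females, with a range of -0.56 to -0.23, and -1.06 ± 0.24 (n = 4) in males, with a range of -1.28 to -0.74. The 3 WT male blastocysts lay above all 4 matKO males, at -0.63 to -0.45. The value is a description, with no test, and it rests on the abundant genes: taken as a ratio of medians over genes it was -2.67 in matKO and -1.16 in WT blastocysts, against -0.71 and -0.43 by means.

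**Figure D4:**
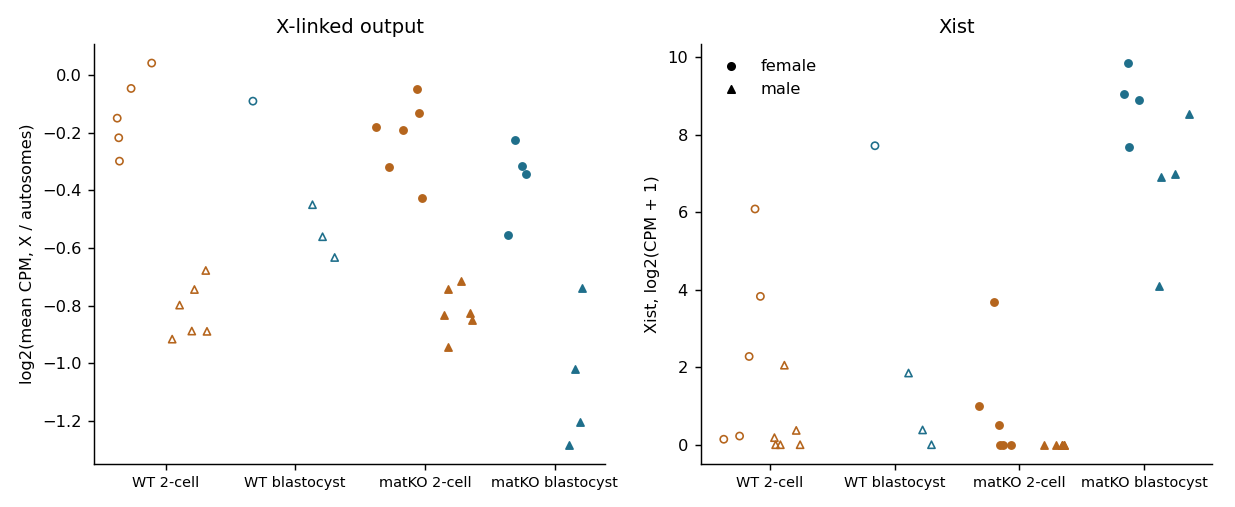
X-linked output (left, log2 of the mean CPM of X-linked over autosomal genes) and Xist (right, log2(CPM + 1)) in each library; circles are females, triangles males, open symbols WT and filled symbols matKO. The 4 matKO male blastocysts hold 16.2 to 374 CPM of Xist, above the 3 WT males, and lie below them in X-linked output.

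Whether the stage change differed between genotypes was tested over the 35 libraries of prefix D707T. Of 16736 genes tested, 277 were called (1.66%; adjusted p under 0.05, no fold limit): 60 rose more or fell less in matKO (0.359%) and 217 rose less or fell more (1.3%). Of the 277, the genotypes differed at the blastocyst stage in 202, at the 2-cell stage in 26, at both in none and at neither in 49. Of the 217 genes called lower, 167 had a fitted stage change below 0 in both genotypes, further below in matKO, and 74 had no count in any matKO blastocyst. The 167 were counted by sign alone, with no adjusted p or fold limit. Over the 16107 autosomal genes tested, the median stage change was below 0 in both genotypes too (-0.691 in WT and -0.727 in matKO). Over all 16736 genes tested, 2298 had no count in any matKO blastocyst. The WT blastocysts are 4, their identifier numbers (1 to 4) do not mix with those of the matKO blastocysts (5 to 12), and the counts of calls moved with single WT libraries, to 19 higher without WT male replicate 5 and 30 without WT male replicate 4. The larger direction also turned: with the matKO 2-cell libraries 42 to 48 alone 1154 were higher and 808 lower, and with the D405T blastocysts of both genotypes 195 were higher and 141 lower. With libraries 37 to 41 alone the counts were 39 and 72, and DESeq2 gave 204 and 442. With the blastocysts of prefix D405T, in which 275 of these genes were tested, 47 were called in the same direction and 1 in the other.

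The 8 genes with the smallest p were Mxra8, Prex2, Btbd18, Smim14, Dmd, Nlrp4f, Slc25a48 and Gata2. Mxra8, a cell surface protein, had no count in any of the 8 matKO blastocysts and was at 0.956 CPM in the female and 15.4, 2.24 and 1.51 in the 3 males in WT. Its levels in 2-cell embryos overlapped (30.8 to 109 CPM (median 50.4) in matKO and 24.4 to 76.5 CPM (median 39.3) in WT), and the WT blastocyst mean was at least 83.0-fold higher, taking 3 counts over the 8 matKO libraries as the limit. At that limit the difference between the stage changes was -6.58 on the log2 scale, from group means (adjusted p of the fit = 3.71e-06). Smim14, a small membrane protein, was at 21.6 CPM in the female and 7.53, 14.9 and 31.8 in the 3 males in WT blastocysts and 0.761 to 4.72 CPM (median 1.27) in matKO blastocysts, without overlap (-3.99 ± 0.54, adjusted p = 2.23e-05). Dmd, the X-linked dystrophin gene, was at 9.08 CPM in the female and 12, 3.54 and 4.84 in the 3 males in WT blastocysts, while 7 of the 8 matKO blastocysts were at 0 and male replicate 4 at 0.227 CPM, which is 1 count (WT over matKO blastocysts 390.0-fold, 95% exact counting interval 69.3 to 15470). Prex2, an activator of the GTPase RAC, held 1 count in the matKO blastocysts and was 105-fold higher in WT blastocysts (95% exact counting interval 18.2 to 4224). Slc25a48, a mitochondrial carrier, had none, and the WT blastocyst mean (4.095 CPM) was at least 67.4-fold higher. Not every WT blastocyst lay above the matKO range in Slc25a48. Nlrp4f, an oocyte gene, fell further in matKO (-6.11 ± 0.84 on the log2 scale). Btbd18, a germ-line transcription factor, fell less in matKO (3.64 ± 0.49): 5.63 to 45.4 CPM (median 28.6) in matKO blastocysts against 2.96 CPM in the female and 0.925, 1.12 and 3.63 in the 3 males in WT, without overlap. With the D405T blastocysts none of these 7 was called (adjusted p = 0.0787 to 1), and Prex2 changed sign, to 1.14.

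**Figure D5:**
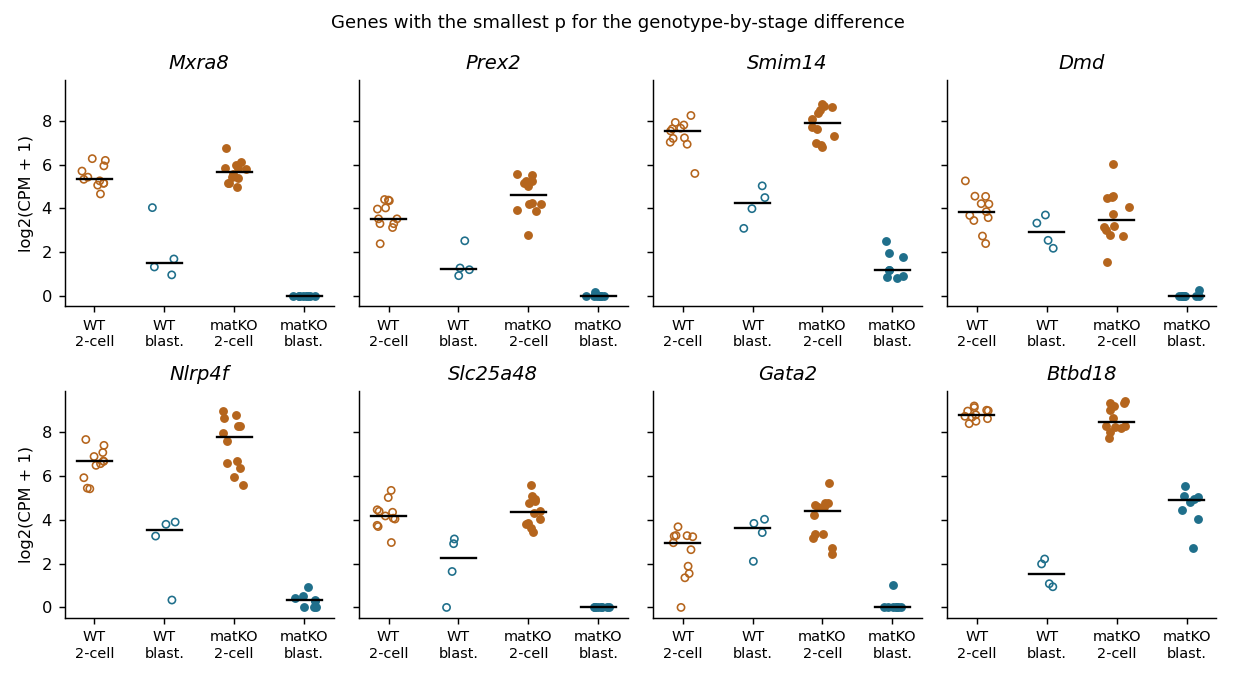
Levels of the 8 genes with the smallest p for the genotype-by-stage difference, as log2(CPM + 1), in the 11 WT and 12 matKO 2-cell embryos and the 4 WT and 8 matKO blastocysts; bars are medians. The groups overlap at the 2-cell stage and stand apart at the blastocyst stage, with Btbd18 higher and the other 7 lower in matKO blastocysts, although single WT blastocysts reach the matKO range in Nlrp4f and Slc25a48.

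Gata2, a GATA factor of trophectoderm, was the listed trophectoderm gene that fell. It was measured at 4.35 to 49.9 CPM (median 20.4) in the 2-cell embryos and at 0 to 1.01 CPM (median 0) in the blastocysts of matKO (log2 change -7.05 ± 0.94, adjusted p = 4.74e-07), and 1 blastocyst, female replicate 7, held all the counts. In WT it was measured at 0 to 11.8 CPM (median 6.75) in 2-cell embryos and at 15.3 CPM in the female and 3.3, 9.69 and 13.3 in the 3 males among the blastocysts, a stage change of 0.82 ± 0.80 that did not pass the test (adjusted p = 0.386). The difference between the genotypes was -7.83 ± 1.17 (adjusted p = 1.08e-04). In the D405T blastocysts the matKO stage change of Gata2 turned to a rise of 1.44 (adjusted p = 0.0091), while the genotype difference kept its direction and was called (-3.65, adjusted p = 0.00413). Its relative Gata3 and its neighbour in the lineage Cdx2 were not called for the genotype difference. Of 39 trophectoderm genes tested for it 1 was called higher, Hand1, and 2 lower, Gata2 and Plac1. The shares over all genes tested were 0.359% higher and 1.3% lower.

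Some of the differences lay at the 2-cell stage. Hand1 was measured at 0.445 to 34.5 CPM (median 18.2) in WT 2-cell embryos and 0 to 0.863 CPM (median 0.153) in matKO 2-cell embryos, and the genotype difference there was -5.86 (adjusted p = 1.21e-05), against 2.73 (adjusted p = 0.156) in blastocysts. The stage change was thus a rise in matKO and not a called change in WT (-1.81 ± 0.92, adjusted p = 0.0897), with a difference of 8.59 ± 1.42 (adjusted p = 4.28e-04). Plac1, an X-linked placental gene, was at 0 in all 8 matKO blastocysts and at 1.24 CPM in the female and 12.8, 7.64 and 4.69 in the 3 males in WT, at least 109-fold higher (genotype-by-stage adjusted p = 0.00705). Hand1 and Plac1 were chosen after their values were seen. Of the 8 imprinted genes, Xist alone was called for the genotype difference. Among X-linked genes 34 of 619 were called lower (5.49%), against 182 of 16107 autosomal genes (1.13%). Of 44 tested maternal transcripts 5 were called lower (Bmp15, Ooep, Nlrp4f, Oog1 and Cpeb1), and of 31 tested transcripts of the 2-cell stage 1 (Zscan4d). Over all genes tested for the genotype-by-stage difference, 0.359% were called higher and 1.3% lower.

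No gene was called for a difference in stage change between the sexes within matKO. By edgeR's quasi-likelihood test 0 of 12512 were called (0% by that rule), 950 had an unadjusted p under 0.05, and the smallest adjusted p was 0.339; DESeq2 called 16 higher and 27 lower in males. The female and male stage changes of X-linked genes had medians of -1.63 and -1.38.

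Markers of other cells that could accompany an embryo were low in both stages except for the macrophage genes of 1 library. Of 16 genes of decidua and uterine stroma 3 were tested and all 3 fell, Prl8a2, Vim and Postn (Vim was not called with the D405T blastocysts, adjusted p = 0.0801). Their list summed to 2.93 to 63.5 CPM in 2-cell embryos and 0 to 3.52 CPM in blastocysts, where 12 of the 16 were at 0 in every library. Of 19 cumulus and granulosa genes 4 were tested and 3 fell (Nr5a2, Tnfaip6 and Amhr2); Nr5a2 fell under 2-fold with the D405T blastocysts (-0.96) and with the 2-cell libraries 42 to 48 alone (-0.85), and did not pass a test against 2-fold (adjusted p = 0.215). The list summed to 213 to 619 CPM in 2-cell embryos and 136 to 190.5 CPM in blastocysts; Nr5a2 and Amhr2, which embryos also express, made up most of it, and the steroid enzyme Cyp11a1 was at 0 in all 20 matKO libraries. The WT 2-cell embryos differed here, with a list sum of 427 to 1669 CPM. Cyp11a1 was at 32.0 to 298 CPM in 8 of the 11 WT 2-cell embryos and at 0 to 0.158 CPM in the other 3, and Hsd3b1, a further steroid enzyme, was at 0 to 804 CPM (median 146) in WT against 0 to 0.359 CPM in matKO. In the genotype-by-stage test 1 gene of this list, Lhcgr, the receptor for luteinizing hormone, was called higher (adjusted p = 0.0448). Cyp11a1 and Hsd3b1 were not called. This test compares stage changes, and for a gene at 0 in both matKO stages, as Cyp11a1 was, the change in matKO cannot be estimated. The lack of a call does not show that the genotypes were alike in these enzymes. Both enzymes and Lhcgr were chosen after their values were seen. Of 20 macrophage and blood genes 2 were tested, and C1qb fell, with 110 CPM in the library that held Lyz2 and 0 to 15.9 CPM in the other 2-cell embryos. With no count in any blastocyst, C1qb was at least 224-fold lower there, and at least 79.7-fold lower when that library was left out (adjusted p = 1.26e-04). The part of these cells in the stage changes and genotype differences above was not tested.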

How the data were processed

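Single-embryo libraries of polyadenylated RNA, made with the Accel-NGS 2S kit per the labels' protocols, were deposited as raw counts per gene. Per the submitters' processing notes, reads were handled with Trim Galore, STAR, SAMtools and featureCounts on build mm10; versions, strand setting, annotation release and the treatment of multi-mapping reads are details the sources used here leave out: they are not given. The count tables of the stages were joined by gene symbol (48321 genes). They hold 4 count columns with no sample in the labels, which were not used. Counts of the 20 matKO libraries (1476150 to 14190048 per library) were tested with edgeR 4.0.16 in R 4.3.3: filterByExpr with a minimum count of 10, TMM, estimateDisp, glmQLFit (robust, with the older dispersion method) and glmQLFTest, with sex as a term and Benjamini-Hochberg adjustment. Each standard error (SE) is the log2 change over the square root of its F. The genotype-by-stage test used all 35 libraries of prefix D707T, and the sex-by-stage test 1 mean per stage and sex. The scripts were tested on simulated data. Lists were described by counts and medians, without a set test; the fold of a gene at 0 in a group was taken against 3 counts over that group, and one with 1 to 3 counts there is a pooled ratio with its 95% exact counting interval. Alternatives were DESeq2 1.42.0, limma 3.58.1 (voom), other scalings and filters, thinning to 1000000 counts, a replicate block, leaving out each library, the 2-cell identifier ranges and the D405T blastocysts; the D405T blastocysts of both genotypes in the genotype-by-stage test were added after seeing the data.

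The members and lists were chosen with earlier results of these data known. Genes named are all PRC2 and imprinted list members, a set of lineage markers, the 8 largest rises and falls with at least 50 CPM and no overlap, up to 3 called members of each list with the smallest p, the 8 genes with the smallest genotype-by-stage p, the 8 most abundant per kilobase at each stage, and those said to be chosen after their values were seen. Clone and predicted-gene names were passed over. Members of lists given only to say which members made up a count were named for that reason. Every pair of libraries within a stage differed by more than counting error (chi-square per degree of freedom at least 13.2; genes with 20 or more counts). Promoter sequences are RefSeq's, on GRCm38.p6.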

Additional observations from a re-analysis of the deposited data

Results flagged for a closer look

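Among 114 genes checked in the 8 matKO blastocysts, 9 had 1 library far from the others, by the ratio of its gap to the range of the group (Dixon's test at its 95% critical value for 8 samples). That limit was applied gene by gene, with no adjustment for the 114 genes checked. In 7 of them the ratio was 1.0, because 1 library held the counts and the other 7 were at 0: Dmd (0.227 CPM in male replicate 4), Gata2 (1.01 CPM in female replicate 7), Oog1 (0.650 CPM in female replicate 5), Prex2 (0.146 CPM in female replicate 4), Tcl1b3 (0.304 CPM in male replicate 5), Tnfaip6 (0.0930 CPM in male replicate 6) and Zfp352 (0.425 CPM in female replicate 6). These are traces of genes that fell. The other 2 were low. Gata6 was at 210.0 CPM in female replicate 6 against 338 to 518 CPM in the other 7 (ratio 0.527), and Trib3 was at 0 in male replicate 4 against 4.82 to 34.8 CPM (ratio 0.602).

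The stage change differed between genotypes, by edgeR's quasi-likelihood test of the interaction, in the 8 genes with the smallest p. On the log2 scale the difference was -8.21 for Mxra8 (adjusted p = 3.71e-06), -6.65 for Prex2 (1.73e-05), 3.64 for Btbd18, -3.99 for Smim14 and -7.50 for Dmd (2.23e-05 each), -6.11 for Nlrp4f (2.34e-05), -7.94 for Slc25a48 (3.48e-05) and -7.83 for Gata2 (1.08e-04). These are fitted values: Mxra8 and Slc25a48 had no count in the matKO blastocysts, and Dmd and Prex2 had 1, so their sizes depend on the prior count and are no bounds (from group means, with 3 counts as the limit, Mxra8 was at -6.58 and Slc25a48 at -6.29). In 12 matKO and 11 WT 2-cell embryos the levels of each gene overlapped.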

How the results depend on the processing

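The stage counts kept their direction and stayed within 1.5 times of 3571 higher and 4824 lower under every alternative, except for 8655 lower with no count filter, which tests low genes too; leaving out each library gave 3327 to 3610 higher and 4597 to 5044 lower. With the D405T blastocysts 28 of the genes called were called in the other direction, among those named only Gata2 (1.44). Over the genes named and the alternatives other than leaving out a library, 1742 values of the stage change kept their call, 18 lost it and 7 gained it; for the genotype-by-stage difference 96 kept it, 7 lost it, and Prex2 turned to 1.14 with the D405T blastocysts of both genotypes. The counts for the genotype-by-stage difference (60 higher, 217 lower) moved most: 104 higher without estimateDisp, 204 and 442 with DESeq2, 138 lower with limma voom, 124 lower after thinning to 1000000 counts, 39 and 72 with the 2-cell libraries 37 to 41, 1154 and 808 with 42 to 48, and 195 and 141 with the D405T blastocysts of both genotypes, an alternative chosen after seeing the data. Leaving out each library gave 19 to 83 higher and 157 to 253 lower. For the sex-by-stage difference the counts were 1 higher without estimateDisp, 16 and 27 with DESeq2, and 0 to 1 in each direction when a library was left out (1 lower without 2-cell female replicate 6, 1 higher without blastocyst female replicate 5). With title numbers as a replicate block, 34 genes were higher and 105 lower for the genotype-by-stage difference; the numbers do not pair the embryos (correlations of -0.018 to 0.048 over 6 same-numbered pairs, -0.075 to 0.062 over 42 others), and Nr5a2 (-0.99), Platr20 (-2.25) and Sfmbt2 (2.38) lost their stage call. With library totals alone, the list medians were -8.87 (2-cell), -8.82 (maternal), 3.09 (trophectoderm), 0.69 (inner cell mass), -0.68 (primitive endoderm), -1.19 (PRC2), 3.43 (imprinted), 1.27 (candidate imprinted), 1.995 (oxidative phosphorylation), -1.08 (FGF), 0.47 (junctions), -1.44 (M phase), -2.14 (G1), -2.04 (cumulus), -8.54 (decidua) and -1.002 (immediate early). By the same scaling, which lowers all tested genes from a median of -0.36 to -1.04, the medians changed sign for DNA methylation (-0.43), glycolysis (-0.074), ribosome biogenesis (-0.046), cholesterol (-0.40), Hippo (-0.29) and p53 targets (-0.48). As medians over genes, X-linked output was -2.67 in matKO and -1.16 in WT blastocysts. For the other changes the cause was not tested. Depth limits the low genes: a gene at 0 in the 8 blastocysts is bounded by 3 counts over the group, for counting error only.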
